A study of Mus musculus with 18 samples.

Results

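RNA sequencing counts were compared between R47H_Tau and WT_Tau cells, which are primary mouse microglia of 2 Trem2 genotypes exposed to the same dose of tau fibrils. All 3 libraries labelled R47H_Tau and all 3 labelled WT_Tau were used, 6 of the 18 libraries of the series. R47H_Tau cells have the genotype written hTrem2 R47H/+, so 1 allele is named as a human TREM2 sequence with the R47H change, and WT_Tau cells have the genotype written mTrem2 +/+. Cells of both groups were harvested from pups of post-natal day 0 to 3 and kept in mixed culture for 10 days before the microglia were isolated. Both groups are those without MK-2206, for which the treatment text gives a vehicle of 0.01% DMSO for 6 h, followed by 0N4R tau fibrils (the tau form with 4 microtubule-binding repeats and no N-terminal insert) at 1 ug per ml. The time in tau is not stated in the labels, nor is the sex of the pups, the number of pups behind a library or whether pups were pooled. The series also holds R47H and WT cells without tau, and R47H cells that received the Akt kinase inhibitor MK-2206, without and with tau.

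TREM2 is a surface receptor that microglia, the resident macrophages of the brain, use to sense lipids, lipoproteins and cell debris. It signals through the adaptor TYROBP to the kinase SYK, and the R47H change, which weakens ligand binding, is a known risk factor for Alzheimer's disease. Tau fibrils are the aggregated form of a neuronal protein, and microglia take them up and respond through NF-kB, the transcription factor family of acute inflammation, and through type I interferon. Nothing in the labels says that replicates came from separate cultures or animals, so p-values measure the spread between these libraries, which may be technical. Levels below are CPM, read counts divided by the scaled size of their library, and changes are log2 ratios of R47H_Tau over WT_Tau with their standard error (SE). Adjusted p-values come from edgeR's quasi-likelihood test, corrected by Benjamini-Hochberg across the 13267 genes that passed the low-count filter, and a gene is called where its adjusted p is below 0.05. In these bulk samples, fewer cells of a kind and less RNA per cell cannot be told apart.

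The 6 libraries held 17055280 to 20686299 counts. The 14 microglial markers summed to 5370 to 5446 CPM in R47H_Tau libraries and 5210 to 5257 CPM in WT_Tau libraries. The 15 astrocyte markers summed to 80.8 to 105 CPM in R47H_Tau libraries and 94.98 to 107 CPM in WT_Tau libraries (Gjb6 at 0), and the 15 neuron markers to 6.31 to 9.06 CPM in R47H_Tau and 5.44 to 6.13 CPM in WT_Tau (Slc17a6 at 0). The 15 oligodendrocyte lineage markers summed to 276 to 308 CPM in R47H_Tau libraries and 287 to 312 CPM in WT_Tau libraries. The 20 border macrophage, monocyte and granulocyte markers summed to 1461 to 1935 CPM in R47H_Tau libraries and 1359 to 1407 CPM in WT_Tau libraries, with the neutrophil genes S100a9, Ly6g and Retnlg at 0 counts in all 6 libraries. The 15 lymphocyte markers summed to at most 3.71 CPM in R47H_Tau and 4.93 CPM in WT_Tau libraries, and the T cell genes Cd3d, Cd3e and Cd8a were at 0. The 15 fibroblast and vascular markers summed to 83.0 to 131 CPM in R47H_Tau and 102 to 122 CPM in WT_Tau libraries, with the endothelial gene Cldn5 at 0. Microglial markers were thus present as a sum in every library, and 13 of the 14 passed the low-count filter. The part of other cells in the results below was not tested.

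R47H_Tau replicate 2 stood apart by gene length. Relative to the other 2 libraries of its group, its log2 CPM dropped by 0.73 per 10-fold gene length, and replicates 1 and 3 differed from each other by a slope of 0.07. The WT_Tau libraries had slopes of -0.17 to 0.14. In the shortest of 10 equal bins of tested genes by length, the median genotype difference was 0.25 on the log2 scale with all libraries and 0.03 without replicate 2. In the longest bin it was -0.24 with all libraries and -0.07 without replicate 2. Counts are therefore given with and without that library, and each gene called below kept its call without it unless the text says otherwise. Across genes, the slope of the genotype difference on length was -0.36 with replicate 2 and -0.09 without it.

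**Figure D1:**
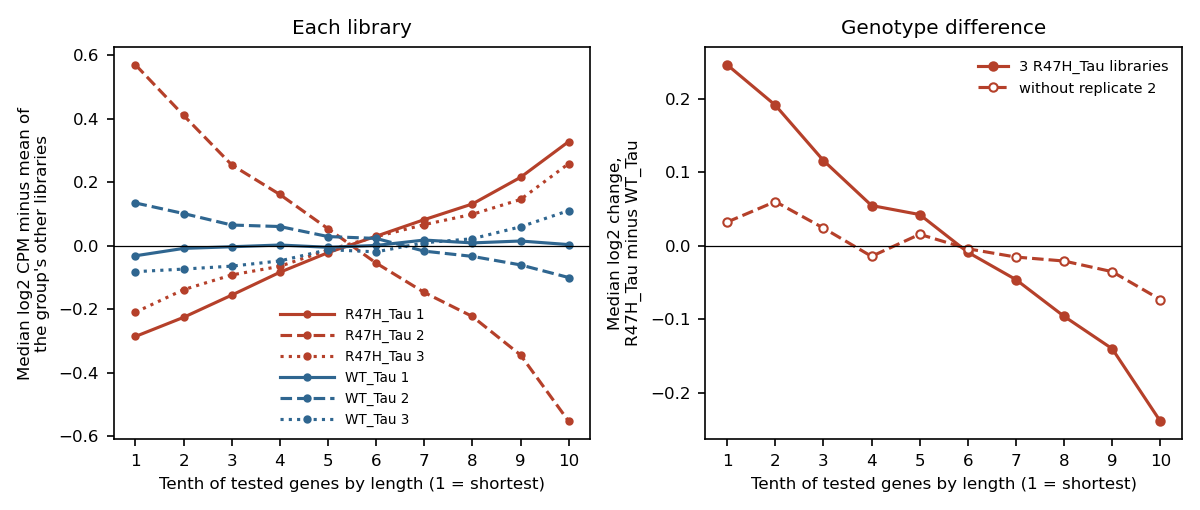
Gene length and expression in the 6 libraries. Left, the median log2 CPM of each library minus the mean of its group's other libraries, in 10 equal bins of the tested genes by length (R47H_Tau red, WT_Tau blue, line style by replicate); right, the median log2 genotype difference in the same bins with 3 R47H_Tau libraries (filled) and without replicate 2 (open). R47H_Tau replicate 2 slopes down, and its removal takes the difference in the shortest bin to 0.03, against 0.25 with it.

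With all 6 libraries, 1260 of 13267 genes were called between R47H_Tau and WT_Tau, which is 9.50% of those tested. Of these, 697 were higher in R47H_Tau (5.25%) and 563 were lower (4.24%). CPM ranges did not overlap between the groups for 1256 of the 1260, and for 4471 of all 13267 tested genes (33.7%). A difference of at least 2-fold was seen for 271 of the higher and 192 of the lower genes, and the median change over all tested genes was -0.00. Without R47H_Tau replicate 2, 792 genes were called (5.97%), 474 higher (3.57%) and 318 lower (2.40%). Of the 1260 genes, 738 were called again in the same direction and 522 were not, and none changed sign. Fewer genes were also called without a WT_Tau library, with 650 without WT_Tau replicate 1. With both groups fitted alone without R47H_Tau replicate 2, 2260 genes were called, among them 1171 of the 1260 in the same direction. Counts of gene lists without replicate 2 below come from the fit of all groups, unless the text says otherwise. The 254 higher genes lost without R47H_Tau replicate 2 from the fit of all groups had a median length of 3285 bp. The 268 lower genes lost there had 5490 bp, against 4126 bp over all tested genes. Genes that kept their call leaned the same way, with 3637 bp for the higher and 4445 bp for the lower ones.

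**Figure D2:**
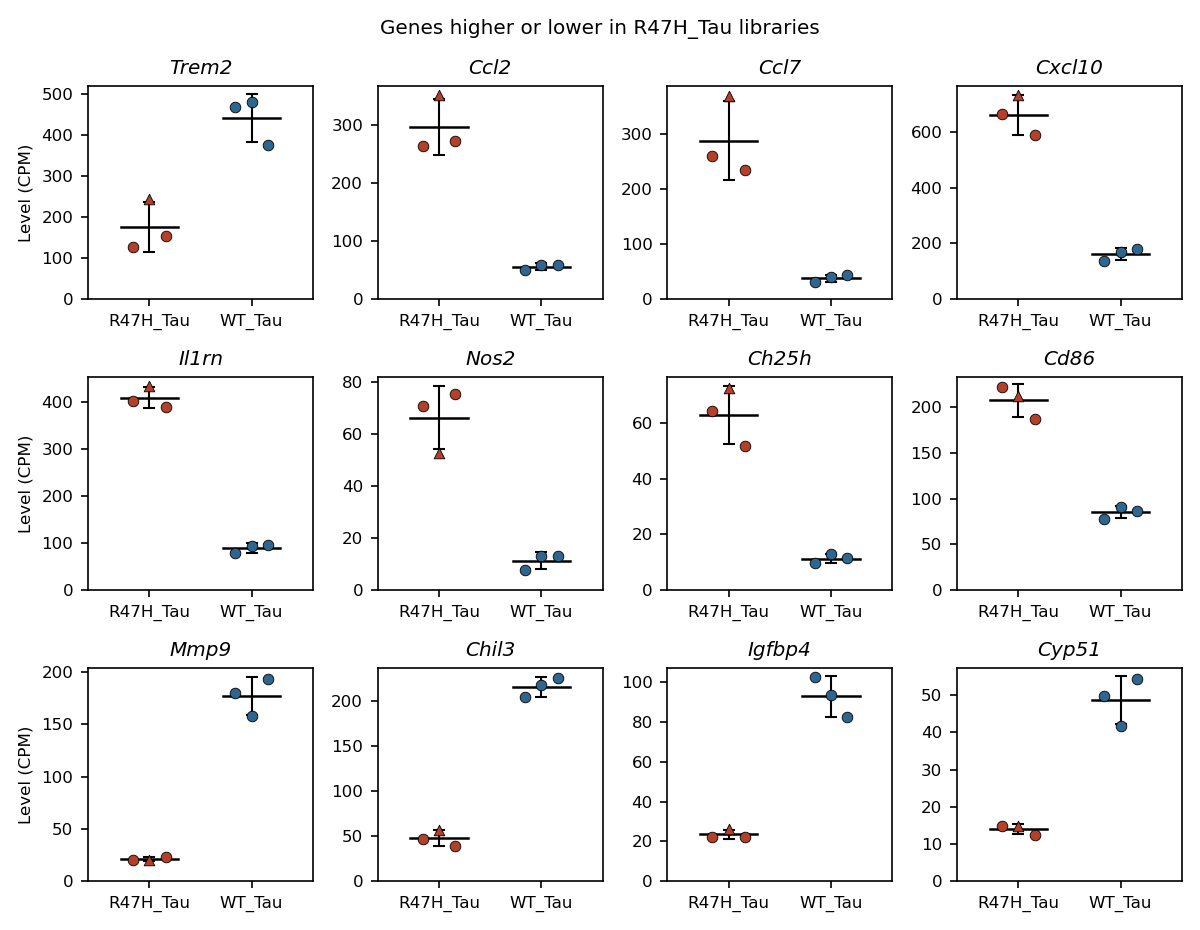
Levels (CPM, linear axis from 0) of 12 genes in the 3 R47H_Tau libraries (red, left) and the 3 WT_Tau libraries (blue, right), with the mean as a horizontal line and the SD as an error bar; the triangle is R47H_Tau replicate 2. The groups do not overlap in any panel, with Ccl7 at 234 to 369 CPM in R47H_Tau and 31.1 to 43.3 CPM in WT_Tau, and Mmp9 at 19.9 to 22.9 CPM in R47H_Tau and 158 to 193 CPM in WT_Tau.

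Trem2 itself (chr17:48346401-48354147, GRCm38) lay at 128, 243 and 155 CPM in R47H_Tau replicates 1 to 3, against 469, 481 and 375 CPM in WT_Tau replicates 1 to 3. All R47H_Tau libraries were below all WT_Tau libraries, and replicate 2 was the highest of its group. The log2 change was -1.33 (SE 0.25, adjusted p = 0.0028), and -1.64 without replicate 2 (adjusted p = 0.0011). The deposited table counts the mouse gene, and how reads of a human TREM2 sequence were assigned was not tested, so the value does not measure the output of both alleles. Among 22 tested neighbours of Trem2 on chromosome 17, 2 were higher and 2 were lower, with and without replicate 2. Of all tested genes, 9.50% were called in either direction with all libraries and 5.97% without replicate 2. Treml2, a related receptor gene of the same cluster, was at 94.7, 99.1 and 102 CPM in R47H_Tau libraries and 41.7, 41.5 and 38.9 CPM in WT_Tau libraries (log2 change 1.28, SE 0.10, adjusted p = 9.1e-07).

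Of 32 tested genes of the TREM2 signalling machinery, 1 was called higher and 1 lower, against 9.50% of all tested genes in either direction, and the lower one was Trem2, with the same counts without replicate 2. The counts depended on the fit, with 4 higher and 5 lower when both groups were fitted alone without replicate 2, 4 and 6 when WT replicate 3 was left out as well in the fit of all groups, and 3 and 4 with a gene-length offset. The higher one was Lyn, a Src family kinase that phosphorylates immune receptor motifs, with 470, 478 and 436 CPM in R47H_Tau libraries against 316, 309 and 337 CPM in WT_Tau libraries (log2 change 0.53, SE 0.08, adjusted p = 7.2e-04). The adaptor gene Tyrobp was not called, at 682, 1185 and 796 CPM in R47H_Tau and 728, 842 and 636 CPM in WT_Tau libraries (log2 change 0.27, SE 0.32, adjusted p = 0.65). Of 45 tested genes of the Akt, insulin and FOXO pathway, 1 was higher and 3 were lower, against 9.50% of all tested genes in either direction. The median change was -0.24, and without replicate 2 the counts were 1 and 1 with a median of -0.11. These counts also depended on the fit. They were 4 higher and 8 lower when both groups were fitted alone without replicate 2. With WT replicate 3 left out as well in the fit of all groups they were 6 and 13, and with a gene-length offset 1 and 6. Sesn1, a FOXO and p53 target that restrains mTORC1, fell to 66.6, 65.1 and 57.8 CPM in R47H_Tau, against 98.5, 91.5 and 101 CPM in WT_Tau (log2 change -0.62, SE 0.12, adjusted p = 0.0042). Irs2, an insulin receptor substrate and FOXO target, was at 5.54, 3.39 and 7.77 CPM in R47H_Tau and 11.4, 9.92 and 9.37 CPM in WT_Tau libraries, which did not pass the test (log2 change -0.88, SE 0.33, adjusted p = 0.11). Irs2 was called in 3 of the alternative fits.

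Chemokine genes, which encode the attractants of monocytes and lymphocytes, stood highest of the gene lists. Of 20 tested, 15 were higher and 0 were lower in R47H_Tau, with a median change of 1.49. Without replicate 2, 11 were higher and 0 lower, with a median of 1.34, and the 4 that lost their call were Ccl5, Ccl6, Ccl9 and Cxcl13. The monocyte attractants of the chromosome 11 cluster moved together. Ccl2 (chr11:82035571-82037453) had 263, 351 and 273 CPM in R47H_Tau libraries, against 49.4, 59.6 and 59.1 CPM in WT_Tau libraries. Its neighbour Ccl7 (chr11:82045712-82047525) had 259, 369 and 234 CPM in R47H_Tau, against 31.1, 40 and 43.3 CPM in WT_Tau. Ccl12 (chr11:82101845-82103400) was at 270, 409 and 243 CPM in R47H_Tau and at 44.6, 56.7 and 62.8 CPM in WT_Tau libraries. Every R47H_Tau library exceeded every WT_Tau library for these genes, and replicate 2 was the highest in each. Their log2 changes were 2.40 for Ccl2 (SE 0.24, adjusted p = 1.3e-05), 2.91 for Ccl7 (SE 0.31, adjusted p = 2.9e-05) and 2.49 for Ccl12 (SE 0.41, adjusted p = 9.7e-04), and without replicate 2 they were 2.26, 2.69 and 2.23, all still called. Ccl8, next in the same cluster, rose by 2.14 on the log2 scale, with 49.2, 73.8 and 43.8 CPM in R47H_Tau and 11.0, 13.3 and 13.6 CPM in WT_Tau.

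The chemokine genes Ccl3 and Ccl4 rose with them. Ccl3 had 208, 260 and 190 CPM in R47H_Tau and 70.3, 77.4 and 82.8 CPM in WT_Tau libraries (log2 change 1.51, SE 0.20, adjusted p = 1.7e-04). Ccl4, named after its values were seen, had 218, 301 and 184 CPM in R47H_Tau and 54.7, 66.4 and 60.5 CPM in WT_Tau libraries (log2 change 1.96, SE 0.33, adjusted p = 0.0013). Ccl5, the most abundant chemokine called, was less stable. It had 2786, 4234 and 2408 CPM in R47H_Tau, against 1161, 1348 and 1321 CPM in WT_Tau, with replicate 2 far above the other R47H_Tau libraries. Its log2 change of 1.30 (SE 0.37, adjusted p = 0.039) lost its call when R47H_Tau replicate 1 or 2 or any WT_Tau library was left out, and was 1.02 without replicate 2 (adjusted p = 0.17). Ccl24, an eosinophil attractant, was low throughout, with 4.93, 12.3 and 4.51 CPM in R47H_Tau and 1.00, 1.48 and 2.67 CPM in WT_Tau (log2 change 2.09, SE 0.44, adjusted p = 0.0063, and 1.47 without replicate 2).

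The interferon-inducible CXCR3 ligands lie side by side on chromosome 5 and all rose. Cxcl10 (chr5:92346638-92348889) was the most abundant, with 665, 731 and 586 CPM in R47H_Tau and 138, 169 and 178 CPM in WT_Tau libraries (log2 change 2.03, SE 0.31, adjusted p = 5.8e-04). Cxcl9 (chr5:92321347-92328079), named after its values were seen, had 47.2, 49.8 and 28.6 CPM in R47H_Tau and 16.7, 18.1 and 18.1 CPM in WT_Tau libraries (log2 change 1.25, SE 0.22, adjusted p = 0.0016). Cxcl11 (chr5:92359544-92365485), which the deposited table types as a polymorphic pseudogene, had 23.7, 33.4 and 21.7 CPM in R47H_Tau and 1.24, 1.48 and 1.65 CPM in WT_Tau libraries. Its log2 change of 4.17 (SE 0.35, adjusted p = 3.3e-06) was the largest among the chemokines named here. In all 3 genes the groups did not overlap, and each call held without replicate 2.

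Cytokine genes moved the same way in smaller number. Of 23 tested cytokine and growth factor genes, 11 were higher and 1 was lower, with a median change of 0.77, and without replicate 2 these counts were 7 and 0 with a median of 0.66. Il1rn, which encodes the antagonist that blocks the interleukin-1 receptor, had 403, 435 and 390 CPM in R47H_Tau, against 78.3, 94.3 and 96.9 CPM in WT_Tau (log2 change 2.19, SE 0.15, adjusted p = 4.1e-07). Ifnb1, the gene of interferon beta, was low but separated, with 6.09, 8.26 and 5.09 CPM in R47H_Tau and 1.05, 1.27 and 0.852 CPM in WT_Tau (log2 change 2.60, SE 0.36, adjusted p = 2.2e-04). Tnf was at 67.1, 81.8 and 72.4 CPM in R47H_Tau and 37.9, 41.8 and 37.8 CPM in WT_Tau (log2 change 0.91, SE 0.16, adjusted p = 0.0018). These 3 genes kept their call without replicate 2, as did Il1a (log2 change 1.06) and Il15, a growth factor of natural killer and memory T cells (log2 change 0.95). Il1b had 64.1, 89.2 and 64.6 CPM in R47H_Tau and 27.3, 29.4 and 40.7 CPM in WT_Tau, a log2 change of 1.16 (adjusted p = 0.032) that lost its call without R47H_Tau replicate 1, R47H_Tau replicate 2 (adjusted p = 0.13), WT_Tau replicate 1 or WT_Tau replicate 2. Il6 did not pass the filter on low counts.

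Receptors for these ligands did not follow as a set. Of 29 tested, 5 were higher and 2 lower, against 5.25% and 4.24% of all tested genes. The median change was -0.04, with 12 members above 0, and without replicate 2 the counts were 4 and 1. The count of lower genes depended on the fit. It was 0 with both groups fitted alone, and 8 without R47H_Tau replicate 2 and WT replicate 3. Ccrl2, a non-signalling chemerin receptor, had 104, 103 and 86.9 CPM in R47H_Tau and 38.3, 40.7 and 45.5 CPM in WT_Tau (log2 change 1.24, SE 0.12, adjusted p = 1.1e-05). The chemokine receptor gene Ccr1 (log2 change 0.84, SE 0.14, adjusted p = 0.0013) and Il15ra, which presents interleukin-15 (log2 change 0.97, SE 0.17, adjusted p = 0.0018), were also higher, and both kept their call without replicate 2.

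Promoter windows show which letters lie upstream of genes of these groups. They were taken from RefSeq (GRCm38.p6) as the 250 bases before each gene's annotated start, 5′ to 3′ on the strand of the gene, and searched on both strands for an NF-kB motif (GGANTTTCC) and an interferon-stimulated response motif (GAAANNGAA). Capitals mark the matches. Cxcl10 is shown for holding both motifs (chr5:92348890-92349139, minus strand), Ifnb1 for the NF-kB motif (chr4:88522795-88523044, minus strand) and Rsad2, an interferon-stimulated gene described below, for the second motif (chr12:26456453-26456702, minus strand).
Cxcl10: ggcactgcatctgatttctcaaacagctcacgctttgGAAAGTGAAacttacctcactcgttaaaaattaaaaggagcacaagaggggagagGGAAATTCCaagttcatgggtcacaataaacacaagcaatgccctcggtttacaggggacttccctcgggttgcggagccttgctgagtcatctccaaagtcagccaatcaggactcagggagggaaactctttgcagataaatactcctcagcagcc
Ifnb1: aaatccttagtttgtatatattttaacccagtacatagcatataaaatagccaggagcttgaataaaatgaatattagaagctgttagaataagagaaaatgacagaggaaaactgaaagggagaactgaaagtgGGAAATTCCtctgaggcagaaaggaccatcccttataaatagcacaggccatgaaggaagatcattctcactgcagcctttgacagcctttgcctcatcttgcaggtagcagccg
Rsad2: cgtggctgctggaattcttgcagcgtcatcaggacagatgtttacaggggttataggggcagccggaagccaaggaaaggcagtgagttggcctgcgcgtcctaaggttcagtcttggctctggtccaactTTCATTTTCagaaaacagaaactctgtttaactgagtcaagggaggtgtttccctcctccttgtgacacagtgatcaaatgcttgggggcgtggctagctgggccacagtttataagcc
In Cxcl10 the interferon motif begins 213 bases and the NF-kB motif 158 bases before the start, in Ifnb1 the NF-kB motif begins 115 bases before it, and in Rsad2 the interferon motif begins 119 bases before it. Windows were found for 13 of the 20 chemokine genes tested, and 3 held the NF-kB motif and 4 the interferon motif, against 1.25% and 8.18% of all 27025 genes with a window. Of the 9 chemokine genes with a window that were higher in R47H_Tau, 1 held the NF-kB motif and 3 the interferon motif. A match is a description of letters, not of a bound site.

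NF-kB genes, here its subunits, its feedback inhibitors and its targets, were higher in R47H_Tau where they were called. Of 38 tested, 16 were higher and 0 were lower with a median change of 0.54, and without replicate 2 these were 12 and 0 with a median of 0.53. Traf1, an NF-kB target that binds TNF receptors, had 20.4, 27.1 and 22.4 CPM in R47H_Tau and 3.11, 5.75 and 4.94 CPM in WT_Tau libraries (log2 change 2.34, SE 0.32, adjusted p = 2.2e-04). The T cell costimulatory gene Cd86 had 222, 212 and 187 CPM in R47H_Tau and 77.8, 90.7 and 86.8 CPM in WT_Tau libraries (log2 change 1.28, SE 0.10, adjusted p = 1.2e-06). The groups were far apart in both, with replicate 2 highest for Traf1 and between the other libraries for Cd86. Cd83, a marker of activated antigen-presenting cells (log2 change 1.01), Gadd45b, a stress sensor (log2 change 1.48), and Nfkbie, an inhibitor of NF-kB (log2 change 0.86), also rose and stayed called without replicate 2.

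Early response genes, which are induced within minutes of a signal, include 10 higher and 1 lower of 30 tested, with a median change of 0.33, and without replicate 2 the counts were 10 and 0. Several of those that rose encode brakes on signalling. Dusp5, a phosphatase of the kinase ERK, had 8.76, 9.81 and 7.49 CPM in R47H_Tau and 2.82, 2.19 and 2.67 CPM in WT_Tau (log2 change 1.76, SE 0.20, adjusted p = 4.1e-05). Dusp1, a phosphatase of the kinases p38 and JNK, had 27.1, 26.6 and 28 CPM in R47H_Tau and 11.6, 10.4 and 11.4 CPM in WT_Tau (log2 change 1.29, SE 0.15, adjusted p = 4.2e-05). Zfp36, whose protein speeds the decay of cytokine mRNAs, had 183, 183 and 176 CPM in R47H_Tau and 118, 114 and 119 CPM in WT_Tau (log2 change 0.63, SE 0.08, adjusted p = 1.6e-04). All R47H_Tau libraries exceeded all WT_Tau libraries for these genes, and replicate 2 was the highest of its group for Dusp5 and the lowest for Dusp1. Socs1, a feedback inhibitor of JAK kinases and the only member of the 23 tested JAK, STAT and SOCS genes that was called with all libraries, rose by 1.25 (SE 0.13, adjusted p = 2.6e-05). Without replicate 2, 2 members of that list were called in the fit of all groups. With both groups fitted alone without replicate 2, 6 members were higher. Without R47H_Tau replicate 2 and WT replicate 3, 7 were higher.

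Genes that make inflammatory mediators split. Of 30 tested genes of nitric oxide, itaconate and prostaglandin metabolism, 5 were higher and 5 lower, with a median change of 0.04, and without replicate 2 these were 4 and 5. Nos2, the inducible nitric oxide synthase, had 70.7, 52.5 and 75.4 CPM in R47H_Tau libraries, against 7.65, 13.3 and 13.2 CPM in WT_Tau libraries. Here replicate 2 was the lowest of its group, and the log2 change was 2.54 (SE 0.39, adjusted p = 6.0e-04) with it and 2.68 without it. Ch25h, whose product 25-hydroxycholesterol is an antiviral oxysterol, had 64.4, 72.4 and 51.7 CPM in R47H_Tau and 9.80, 12.8 and 11.4 CPM in WT_Tau (log2 change 2.47, SE 0.24, adjusted p = 1.1e-05). Pla2g4a, which releases arachidonic acid from membranes, rose by 0.58 (SE 0.09, adjusted p = 0.0010). Genes of 3 steps that act on arachidonic acid or its products fell. Ptgs1, the constitutive cyclooxygenase, had 35.8, 34.1 and 30.1 CPM in R47H_Tau and 67.9, 64.8 and 63.5 CPM in WT_Tau (log2 change -0.97, SE 0.10, adjusted p = 2.0e-05). Alox5, the leukotriene-forming lipoxygenase, changed by -1.39, and Hpgd, which degrades prostaglandins, by -1.81, with 3.53, 4.30 and 4.34 CPM in R47H_Tau and 15.2, 13.8 and 13.9 CPM in WT_Tau (adjusted p = 2.0e-04 for Alox5 and 4.1e-04 for Hpgd).

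Interferon-stimulated genes were higher in R47H_Tau where they were called. Of 59 tested, 28 were higher and 0 lower with a median change of 0.47, and without replicate 2 these were 21 and 0 with a median of 0.46. The count of higher genes depended on the fit. It was 46 with both groups fitted alone without replicate 2, and 51 without R47H_Tau replicate 2 and WT replicate 3. Rsad2, the antiviral protein viperin, had 3327, 2693 and 3068 CPM in R47H_Tau and 1224, 1385 and 1330 CPM in WT_Tau (log2 change 1.21, SE 0.15, adjusted p = 8.1e-05). Its neighbour Cmpk2, a nucleotide kinase of the mitochondria, had 2245, 1845 and 2330 CPM in R47H_Tau and 946, 1027 and 937 CPM in WT_Tau (log2 change 1.14, SE 0.14, adjusted p = 7.5e-05). Irf7, the transcription factor that amplifies interferon, had 3221, 4493 and 3788 CPM in R47H_Tau and 2068, 2300 and 1784 CPM in WT_Tau (log2 change 0.90, SE 0.13, adjusted p = 3.6e-04). Replicate 2 was lowest for Rsad2 and Cmpk2 and highest for Irf7, and the groups did not overlap for any of these. Phf11b (log2 change 1.26), Mx2 (0.89) and Usp18, which removes the ISG15 modifier (1.10), were also called with and without replicate 2. The interferon motif of the promoter search lay in 19 of 45 tested members with a window (42.2%), against 8.18% of all genes with one. Among the 20 higher members with a window it lay in 8 (40%), a share close to that of all tested members.

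The guanylate-binding proteins and immunity-related GTPases, which attack vacuoles of pathogens, held 13 higher and 0 lower genes of 18 tested, with a median of 0.83, and 11 and 0 without replicate 2. Tgtp2 had 150, 167 and 147 CPM in R47H_Tau and 49.5, 60.8 and 53.6 CPM in WT_Tau (log2 change 1.5, SE 0.14, adjusted p = 8.0e-06). Its near copy Tgtp1 had 8.22, 9.41 and 6.34 CPM in R47H_Tau and 0.526, 2.34 and 0.909 CPM in WT_Tau (log2 change 2.66, SE 0.39, adjusted p = 3.8e-04), and how reads shared by the pair were split is uncertain. Gbp4 had 168, 129 and 144 CPM in R47H_Tau and 60.8, 69.6 and 73.5 CPM in WT_Tau (log2 change 1.12, SE 0.17, adjusted p = 5.9e-04), and it also has close paralogs. The interferon motif lay in 10 of the 11 tested members of this list that had a promoter window, against 8.18% of all genes with one.

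Antigen presentation genes moved in part. Of 24 tested genes of MHC class I and peptide loading, 6 were higher and 0 lower, with a median of 0.46, and without replicate 2 these were 3 and 0 with a median of 0.30. The count of higher genes was 11 with both groups fitted alone without replicate 2. It was 15 without R47H_Tau replicate 2 and WT replicate 3. The non-classical class I genes H2-Q6 and H2-Q7, which are close copies with uncertain reads, had 672, 810 and 681 CPM and 552, 799 and 602 CPM in R47H_Tau. In WT_Tau libraries H2-Q6 had 193, 269 and 188 CPM and H2-Q7 had 218, 282 and 184 CPM. Their log2 changes were 1.73 (SE 0.19, adjusted p = 4.0e-05) and 1.51 (SE 0.26, adjusted p = 0.0014), and both calls held without replicate 2. B2m, the shared light chain, was among the most abundant called genes, with 7870, 9289 and 6572 CPM in R47H_Tau and 4076, 4586 and 5116 CPM in WT_Tau. Its change of 0.78 (adjusted p = 0.044) lost its call without R47H_Tau replicate 1, R47H_Tau replicate 2 (0.65, adjusted p = 0.17) or any 1 of the WT_Tau libraries. Of 10 tested genes of MHC class II, 2 were higher and 0 lower with and without replicate 2. Over all tested genes, 5.25% were higher and 4.24% lower with all libraries.

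Cholesterol synthesis and uptake was the list that stood lowest. Of 26 tested, 1 was higher and 19 lower in R47H_Tau, with a median change of -0.86, and without replicate 2 these were 0 and 12 with a median of -0.84. Cyp51, the sterol demethylase, had 14.9, 14.8 and 12.5 CPM in R47H_Tau, against 49.9, 41.7 and 54.5 CPM in WT_Tau (log2 change -1.79, SE 0.13, adjusted p = 6.7e-07). Sqle, which makes the epoxide of squalene and limits the rate of the late pathway, had 8.09, 8.21 and 5.43 CPM in R47H_Tau, against 28.1, 20.7 and 28 CPM in WT_Tau (log2 change -1.82, SE 0.16, adjusted p = 6.2e-06). Insig1, a sterol-regulated brake on the transcription factor SREBP2, had 36.3, 37.4 and 36.7 CPM in R47H_Tau and 70.4, 62.4 and 67.9 CPM in WT_Tau (log2 change -0.86, SE 0.08, adjusted p = 1.2e-05). Sc5d, which acts near the end of the pathway, changed by -0.93 (SE 0.13, adjusted p = 2.0e-04). For each of these 4 genes every R47H_Tau library was below every WT_Tau library, and the call held without replicate 2.

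**Figure D3:**
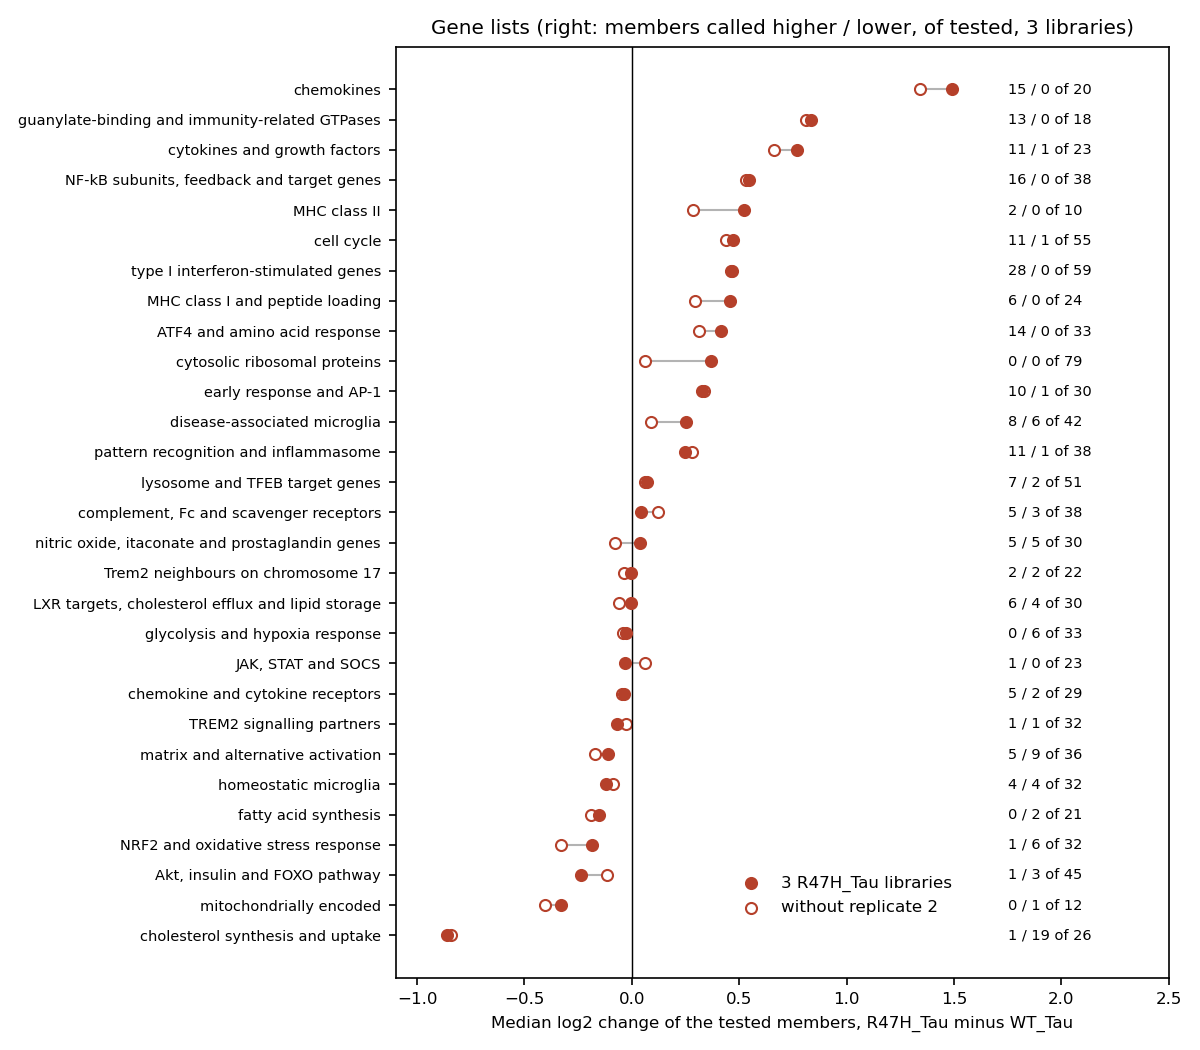
Median log2 change (R47H_Tau minus WT_Tau) of the tested members of 29 gene lists, with 3 R47H_Tau libraries (filled) and without replicate 2 (open); the text at the right gives members called higher and lower, of those tested, with all libraries. Chemokines lie at 1.49 and cholesterol synthesis and uptake at -0.86, and the ribosomal protein genes lie at 0.37 with replicate 2 and 0.06 without it.

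The promoter windows of the sterol genes were searched for a sterol regulatory motif (TCACNCCAC) and an E-box (CACGTG), 2 sets of letters that SREBP proteins can bind. Of 12 lower genes with a window, 4 held the E-box and 1, Hmgcs1, held the sterol motif, against 6.86% and 1.22% of all genes with a window. Among all 19 tested members of the list with a window, 4 held the E-box (21.1%) and 1 the sterol motif (5.26%). Insig1 (chr5:28071162-28071411, plus strand) and Sc5d (chr9:42264301-42264550, minus strand) are shown with the E-box in capitals.
Insig1: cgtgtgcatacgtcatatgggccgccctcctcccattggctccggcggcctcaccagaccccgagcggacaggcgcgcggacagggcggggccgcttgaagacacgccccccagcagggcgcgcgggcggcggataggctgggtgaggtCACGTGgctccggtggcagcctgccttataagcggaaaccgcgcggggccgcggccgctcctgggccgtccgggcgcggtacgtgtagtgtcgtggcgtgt
Sc5d: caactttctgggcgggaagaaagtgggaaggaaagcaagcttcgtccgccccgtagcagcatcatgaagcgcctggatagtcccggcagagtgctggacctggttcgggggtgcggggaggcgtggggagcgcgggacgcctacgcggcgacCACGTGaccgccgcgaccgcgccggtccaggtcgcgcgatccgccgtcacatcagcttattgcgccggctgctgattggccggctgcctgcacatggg
The E-box begins 101 bases before the start in Insig1 and 98 bases before it in Sc5d.

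Other lipid genes moved less as groups. Of 21 tested genes of fatty acid synthesis, 0 were higher and 2 lower, against 5.25% and 4.24% of all tested genes. Without replicate 2 these counts were 0 and 1. Scd1, the desaturase that makes oleic acid, had 2.25, 1.95 and 1.89 CPM in R47H_Tau and 4.26, 4.48 and 4.32 CPM in WT_Tau (log2 change -1.1, SE 0.24, adjusted p = 0.0079). Of 30 tested genes of LXR targets, cholesterol efflux and lipid storage, 6 were higher and 4 lower with a median of -0.00, and without replicate 2 these were 3 and 1. Abcg1, an exporter of cholesterol, had 579, 521 and 595 CPM in R47H_Tau and 342, 368 and 322 CPM in WT_Tau (log2 change 0.71, SE 0.17, adjusted p = 0.012). Mylip, an LXR target that degrades the LDL receptor, rose by 0.56 (SE 0.12, adjusted p = 0.0089). Lpl, the lipoprotein lipase, fell by 0.55 (adjusted p = 0.016), with 1528, 1384 and 1564 CPM in R47H_Tau and 2156, 1996 and 2401 CPM in WT_Tau, and lost its call without R47H_Tau replicate 2 (adjusted p = 0.068), WT_Tau replicate 1 or WT_Tau replicate 3, and under the gene-length offset.

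Antioxidant genes that depend on the transcription factor NRF2 were lower where they were called, with 1 exception. Of 32 tested, 1 was higher and 6 were lower with a median of -0.19, and without replicate 2 these were 0 and 8 with a median of -0.33. The count of lower genes depended on the fit. It was 16 with both groups fitted alone without replicate 2, and 16 without R47H_Tau replicate 2 and WT replicate 3. Nqo1, a quinone reductase, had 1.83, 2.87 and 3.09 CPM in R47H_Tau and 8.27, 8.55 and 10.3 CPM in WT_Tau (log2 change -1.79, SE 0.33, adjusted p = 0.0023). Gclm, the regulatory subunit of glutathione synthesis, had 22.6, 22.1 and 19.8 CPM in R47H_Tau and 39.2, 36.1 and 49.5 CPM in WT_Tau (log2 change -0.95, SE 0.13, adjusted p = 2.3e-04). Catalase (Cat) had 104, 87.1 and 92.5 CPM in R47H_Tau and 188, 167 and 203 CPM in WT_Tau (log2 change -0.98, SE 0.14, adjusted p = 2.7e-04). The glutathione transferase gene Gsta3 was low in R47H_Tau, with 0.669, 1.38 and 0.686 CPM in R47H_Tau against 5.21, 4.94 and 6.87 CPM in WT_Tau (log2 change -2.63, SE 0.53, adjusted p = 0.0047).

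Genes of the extracellular matrix and of alternative activation, the tissue-repair state of macrophages, held several large falls. Of 36 tested, 5 were higher and 9 lower, with a median of -0.11, and without replicate 2 these were 3 and 9. Mmp9, the gelatinase that cuts basement membrane, had 19.9, 20.2 and 22.9 CPM in R47H_Tau, against 180, 158 and 193 CPM in WT_Tau (log2 change -3.08, SE 0.20, adjusted p = 4.1e-07). Chil3, a chitinase-like marker of alternative activation, had 46.7, 56.8 and 39.0 CPM in R47H_Tau and 204, 218 and 226 CPM in WT_Tau (log2 change -2.18, SE 0.20, adjusted p = 6.5e-06). Fibronectin (Fn1) had 396, 247 and 416 CPM in R47H_Tau and 1353, 1208 and 1329 CPM in WT_Tau (log2 change -1.88, SE 0.29, adjusted p = 7.0e-04). The groups were far apart for all of these. Replicate 2 was between the other R47H_Tau libraries for Mmp9, highest for Chil3 and lowest for Fn1, whose change without it was -1.67. Adamts1, a secreted protease, changed by -1.56 (SE 0.26, adjusted p = 0.0014).

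Igfbp4, which binds insulin-like growth factors, had 22.1, 26.1 and 22.3 CPM in R47H_Tau and 103, 93.7 and 82.3 CPM in WT_Tau (log2 change -1.98, SE 0.13, adjusted p = 4.1e-07). Gpc1, a heparan sulphate proteoglycan, had 3.35, 2.24 and 4.0 CPM in R47H_Tau and 16.4, 13.7 and 13.6 CPM in WT_Tau (log2 change -2.19, SE 0.29, adjusted p = 1.7e-04). F13a1, a clotting transglutaminase and a marker of border macrophages and monocytes, was at 0.669, 0.517 and 0.457 CPM in R47H_Tau and 4.02, 3.66 and 4.20 CPM in WT_Tau (log2 change -2.84, SE 0.27, adjusted p = 1.1e-05). Of the 11 border macrophage, monocyte and granulocyte markers tested, 0 were higher and 2 lower, with a median change of -0.40 and 4 members above 0, and the median was -0.53 without replicate 2. The summed level of the whole list was 1461 to 1935 CPM in R47H_Tau and 1359 to 1407 CPM in WT_Tau. Among 9 tested astrocyte markers, Aldoc was lower, with 3.29, 4.71 and 3.09 CPM in R47H_Tau and 14.2, 13.1 and 13.5 CPM in WT_Tau (log2 change -1.88, SE 0.16, adjusted p = 4.3e-06), and 1 other was higher. The part of other cells in these falls was not tested.

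State genes of microglia gave no single direction. Of 42 tested disease-associated genes, the set that rises around plaques, 8 were higher and 6 lower with a median of 0.25, and without replicate 2 these were 3 and 5 with a median of 0.09. The counts depended on the fit. They were 13 and 10 with both groups fitted alone without replicate 2, and 17 and 10 without R47H_Tau replicate 2 and WT replicate 3. Cst7, a lysosomal protease inhibitor, had 129, 176 and 112 CPM in R47H_Tau and 43.4, 44.3 and 48.9 CPM in WT_Tau (log2 change 1.61, SE 0.24, adjusted p = 4.6e-04). Itgax, the integrin CD11c, went the other way, with 25.9, 25.1 and 28.5 CPM in R47H_Tau and 59.3, 48.2 and 52.3 CPM in WT_Tau (log2 change -1.01, SE 0.20, adjusted p = 0.0044). Timp2, an inhibitor of matrix proteases, fell by 0.55 (SE 0.11, adjusted p = 0.0037), and Mamdc2 was at 0.791, 0.402 and 0.914 CPM in R47H_Tau and 3.92, 3.56 and 4.37 CPM in WT_Tau (log2 change -2.48, SE 0.24, adjusted p = 1.0e-05). Clec7a, a receptor for fungal glucans, rose by 0.56 (adjusted p = 0.013) but lost its call without R47H_Tau replicate 2 (0.52, adjusted p = 0.050), WT_Tau replicate 1 or WT_Tau replicate 2. Apoe and Spp1, 2 genes often used to mark this state, were not called with all libraries. Apoe had 15406, 27859 and 19024 CPM in R47H_Tau and 19048, 20618 and 15381 CPM in WT_Tau (log2 change 0.18, SE 0.28, adjusted p = 0.73), with groups that overlapped and replicate 2 highest. Spp1 had 3871, 4883 and 3893 CPM in R47H_Tau and 2959, 3194 and 3334 CPM in WT_Tau (log2 change 0.41, SE 0.21, adjusted p = 0.25). Its groups did not overlap, and it was called in 2 of the alternative fits.

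Among 32 tested homeostatic genes, which mark resting microglia, 4 were higher and 4 lower with a median of -0.12, and without replicate 2 these were 3 and 2. Over all tested genes, 5.25% were higher and 4.24% lower, and 3.57% and 2.40% without replicate 2. The list counts were 6 and 9 with both groups fitted alone without replicate 2. Without R47H_Tau replicate 2 and WT replicate 3 they were 9 and 11. P2ry13, a receptor for ADP, had 133, 114 and 130 CPM in R47H_Tau and 64.7, 73.8 and 77.0 CPM in WT_Tau (log2 change 0.81, SE 0.11, adjusted p = 2.7e-04). Its relative P2ry12, the receptor that steers processes to injury, had 43.8, 31.9 and 31.8 CPM in R47H_Tau and 26.3, 26.4 and 31.2 CPM in WT_Tau and was not called (log2 change 0.36, SE 0.15, adjusted p = 0.15). P2ry12 was called in 2 of the alternative fits. Itgb5, an integrin subunit, had 242, 254 and 259 CPM in R47H_Tau and 436, 408 and 360 CPM in WT_Tau (log2 change -0.68, SE 0.09, adjusted p = 1.8e-04).

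Of 55 tested cell cycle genes, 11 were higher and 1 lower with a median of 0.47, and without replicate 2 these were 8 and 0 with a median of 0.44. Tpx2, which builds the spindle, had 36.6, 47.8 and 34.0 CPM in R47H_Tau and 11.6, 12.5 and 12.3 CPM in WT_Tau (log2 change 1.70, SE 0.14, adjusted p = 2.4e-06). Ccnd2, the cyclin that starts the cycle, had 66.1, 37.2 and 64.9 CPM in R47H_Tau and 12.2, 12.5 and 14.5 CPM in WT_Tau (log2 change 2.10, SE 0.27, adjusted p = 1.6e-04), with replicate 2 the lowest of its group. Top2a, the topoisomerase of dividing cells, rose by 0.90 (SE 0.16, adjusted p = 0.0023). The proliferation marker Mki67 was not called, at 20.8, 14.8 and 19.5 CPM in R47H_Tau and 16.2, 14.8 and 22.9 CPM in WT_Tau (log2 change 0.03, SE 0.22, adjusted p = 0.94).

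Of 33 tested genes of the ATF4 and amino acid response, 14 were higher and 0 lower with a median of 0.42, and without replicate 2 these were 5 and 0 with a median of 0.31. Trib3, a stress-induced pseudokinase that binds Akt, had 47.8, 65.8 and 52.5 CPM in R47H_Tau and 22.1, 27.4 and 21.2 CPM in WT_Tau (log2 change 1.23, SE 0.18, adjusted p = 3.4e-04). Psat1, of serine synthesis, rose by 0.77 (SE 0.12, adjusted p = 7.7e-04), and Atf3, a stress transcription factor, had 285, 337 and 288 CPM in R47H_Tau and 177, 197 and 181 CPM in WT_Tau (log2 change 0.72, SE 0.10, adjusted p = 3.2e-04). Of 33 tested glycolysis and hypoxia genes, 0 were higher and 6 lower, against 5.25% and 4.24% of all tested genes. Without replicate 2 these counts were 0 and 3. Pfkfb4, a regulator of glycolytic flux, fell by 0.60 (SE 0.12, adjusted p = 0.0042). Of 51 tested lysosomal genes, 7 were higher and 2 lower with a median of 0.07, and without replicate 2 these were 2 and 2. Over all tested genes the shares were 5.25% higher and 4.24% lower, and 3.57% and 2.40% without replicate 2. Cathepsin C (Ctsc), which activates serine proteases, had 2414, 2415 and 2215 CPM in R47H_Tau and 1443, 1576 and 1592 CPM in WT_Tau (log2 change 0.61, SE 0.10, adjusted p = 0.0013). Cathepsin B (Ctsb), the most abundant protease named here, rose by 0.39 (adjusted p = 0.022) but lost its call without R47H_Tau replicate 2 (0.29, adjusted p = 0.10), WT_Tau replicate 1 or WT_Tau replicate 3, with no count filter and in a fit of the compared groups alone.

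Sensors and innate receptors were higher in part. Of 38 tested genes of pattern recognition and the inflammasome, 11 were higher and 1 lower with a median of 0.25, and without replicate 2 these were 7 and 0. Casp4, the sensor protease for intracellular endotoxin (known in mouse as caspase-11), had 144, 182 and 127 CPM in R47H_Tau and 61.6, 71.4 and 76.4 CPM in WT_Tau (log2 change 1.11, SE 0.18, adjusted p = 0.0011). Of 38 tested complement, Fc and scavenger receptor genes, 5 were higher and 3 lower, against 5.25% and 4.24% of all tested genes. Without replicate 2 these counts were 3 and 3. Fcgr1, the high-affinity IgG receptor, had 1602, 2155 and 1662 CPM in R47H_Tau and 989, 1117 and 948 CPM in WT_Tau (log2 change 0.83, SE 0.14, adjusted p = 0.0016).

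Genes outside the lists were among the largest changes. F8, the clotting cofactor VIII, had 9.98, 15.2 and 6.34 CPM in R47H_Tau and 0.861, 1.88 and 1.31 CPM in WT_Tau (log2 change 2.96, SE 0.32, adjusted p = 2.9e-05). Ccdc173, a gene of cilia and flagella, had 11.1, 16.1 and 12.5 CPM in R47H_Tau and 2.73, 3.87 and 3.07 CPM in WT_Tau (log2 change 2.04, SE 0.33, adjusted p = 8.8e-04). Kcnn3, a calcium-activated potassium channel, fell to 0.730, 0.402 and 1.31 CPM in R47H_Tau, against 5.31, 4.58 and 5.74 CPM in WT_Tau (log2 change -2.66, SE 0.46, adjusted p = 0.0015). Slc12a5, the potassium-chloride cotransporter of neurons, fell to 1.16, 0.976 and 1.49 CPM in R47H_Tau, against 5.50, 4.38 and 4.6 CPM in WT_Tau (log2 change -1.99, SE 0.30, adjusted p = 5.4e-04). The calls for all 4 held without replicate 2.

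Some values moved with R47H_Tau replicate 2, and calls also moved with other libraries: 650 genes were called without WT_Tau replicate 1 and 786 without WT_Tau replicate 2. The 79 tested cytosolic ribosomal protein genes, most of which are short, had a median change of 0.37 with it and 0.06 without it, and 0 were called in either setting. Bcl2a1a, an NF-kB target that prevents apoptosis and has near-identical copies, had 77.3, 134 and 72.1 CPM in R47H_Tau and 26.7, 31.3 and 27.6 CPM in WT_Tau (log2 change 1.73, adjusted p = 0.013), and lost its call without that library (1.39, adjusted p = 0.066) and without WT_Tau replicate 1 or 3. Xcr1, a chemokine receptor of dendritic cells, had 2.86, 5.68 and 2.11 CPM in R47H_Tau and 0.909, 1.22 and 1.31 CPM in WT_Tau (log2 change 1.63, adjusted p = 0.048, and 1.12 with adjusted p = 0.27 without replicate 2), and any other 1 of the 6 libraries except R47H_Tau replicate 3 also ended the call. Sh3d19, an adaptor of endocytosis, changed by -1.69 (adjusted p = 0.0098), and by -1.52 without replicate 2 (adjusted p = 0.053), the only library whose removal ended its call. Leaving replicate 2 out also added 54 calls, 31 higher and 23 lower. Rapgef2, a long gene of a Rap activator, had 237, 130 and 228 CPM in R47H_Tau and 108, 117 and 131 CPM in WT_Tau, so replicate 2 lay within the WT_Tau range (log2 change 0.74, adjusted p = 0.099, and 0.97 with adjusted p = 0.035 without it). Thbs1, thrombospondin, had 398, 217 and 399 CPM in R47H_Tau and 231, 216 and 232 CPM in WT_Tau (0.58, adjusted p = 0.15, and 0.81 with adjusted p = 0.031 without it). Tenm4, a large adhesion protein, changed by 1.06 (adjusted p = 0.073), and by 1.35 without replicate 2 (adjusted p = 0.021).

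The same genotype difference without tau was measured in 6 other libraries, 3 of R47H and 3 of WT cells, so it shares none with the comparison above. There 1997 genes were called (15.1%). WT replicate 3 has the same kind of gene-length trend as R47H_Tau replicate 2, with a slope of -1.39 against -0.73 for that library. Without both libraries, 3924 genes were called between R47H and WT. The list counts of the following comparison are given with all libraries and without both, and the counts of shared genes and the correlation with all libraries only. Both differences were called for 584 genes, and 542 of these had the same direction, 353 higher and 189 lower. Those 542 genes are 43.0% of the genes called with tau and 27.1% of those called without it. Across all tested genes the 2 changes had a Pearson correlation of 0.32, given as a description, since genes are not independent. R47H_Tau replicate 2 lies on the R47H side of the change with tau, and WT replicate 3 on the WT side of the other. Their length trends thus enter the 2 changes with opposite signs. The effect on the shared counts and the correlation was not tested. Trem2 had a change of -1.33 with tau and -1.44 without it, Ccl7 had 2.91 and 2.99, Chil3 had -2.18 and -2.46, and Mmp9 had -3.08 and -2.24, with no difference called between the settings for these 4 genes.

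The difference between both genotype effects, with tau minus without, was called for 713 genes (5.37%), 272 positive (2.05%) and 441 negative (3.32%). It was called for 323 of the 1260 genes above, positive for 108 and negative for 215. Of 676 genes called only with tau, 144 had a called difference, and for the rest the data do not show that the effect differs. The 2 effects were called in opposite directions for 42 genes, of which 25 were higher and 17 lower in R47H_Tau. Of the 42, 23 kept their call between R47H_Tau and WT_Tau without R47H_Tau replicate 2. Tnf was 1 of the 42. It averaged 73.8 ± 7.46 CPM in R47H_Tau and 39.2 ± 2.27 CPM in WT_Tau, and 12.7 ± 1.64 CPM in R47H and 27.2 ± 7.54 CPM in WT cells (SD, n = 3 each). Its genotype change was 0.91 with tau and -1.09 without it, a difference of 2.0 (SE 0.23, adjusted p = 6.5e-05). Dusp5, Dusp1 and Nfkbie were also of this kind, with changes of 1.76, 1.29 and 0.86 with tau and -0.98, -0.70 and -0.86 without it.

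**Figure D4:**
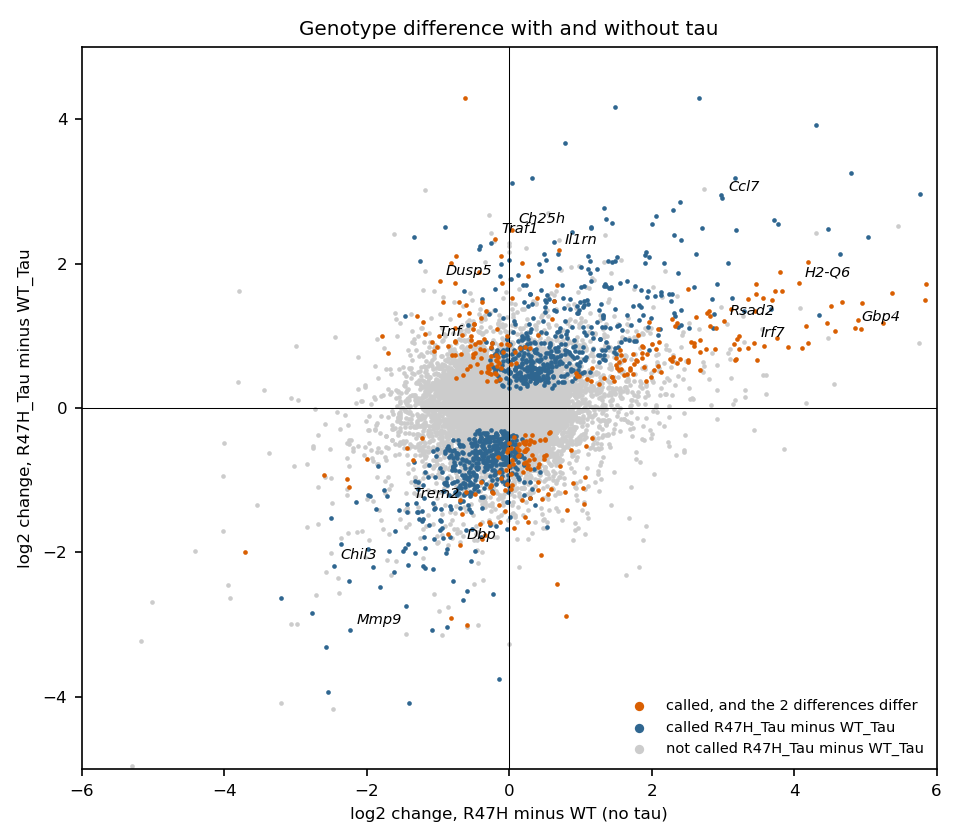
Log2 genotype change with tau (vertical, R47H_Tau minus WT_Tau) against the change without tau (horizontal, R47H minus WT) for tested genes; blue genes were called with tau, orange genes were called with tau and had a called difference between the 2 changes, grey genes were not called with tau, and 5 genes lie outside the axes. Interferon genes such as Irf7 and Gbp4 lie to the right, with changes of 3.44 and 4.85 without tau and 0.90 and 1.12 with it, and Tnf and Dusp5 lie at the upper left.

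Among NF-kB genes, the difference was positive for 12 of 38 tested and negative for 0, and among early response genes it was positive for 16 of 30 and negative for 0. Without both length-shifted libraries it was positive for 21 NF-kB and 19 early response genes and negative for 0 in both lists. Ch25h averaged 62.8 ± 10.4 CPM in R47H_Tau and 11.3 ± 1.51 CPM in WT_Tau, and 2.39 ± 0.957 CPM in R47H and 2.36 ± 0.556 CPM in WT cells (SD, n = 3 each). The genotype groups overlapped without tau (log2 change 0.04) and were apart with it (2.47), a difference of 2.43 (SE 0.37, adjusted p = 7.3e-04). Il1rn averaged 409 ± 23.1 CPM in R47H_Tau and 89.8 ± 10.1 CPM in WT_Tau, and 37.0 ± 6.70 CPM in R47H and 22.9 ± 2.67 CPM in WT cells, with a difference of 1.49 (SE 0.20, adjusted p = 2.9e-04). Both calls held in every alternative that was run.

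Interferon genes went the other way. The difference was negative for 49 of 59 tested interferon-stimulated genes and for 16 of 18 GTPases, and positive for 0 in both lists. Without both length-shifted libraries it was negative for 59 and 16. The median genotype change of the interferon-stimulated genes was 0.47 with tau and 1.83 without it. Irf7 averaged 3834 ± 637 CPM in R47H_Tau and 2051 ± 258 CPM in WT_Tau, and 1272 ± 120 CPM in R47H and 117 ± 10.9 CPM in WT cells (SD, n = 3 each). WT_Tau libraries had more Irf7 than R47H libraries without tau, and the genotype gap was smaller with tau on the log scale (difference -2.54, SE 0.19, adjusted p = 9.8e-07). Gbp4 averaged 147 ± 19.4 CPM in R47H_Tau and 68.0 ± 6.51 CPM in WT_Tau, and 27.7 ± 0.908 CPM in R47H and 0.924 ± 0.431 CPM in WT cells, a difference of -3.74 (SE 0.28, adjusted p = 9.8e-07). Treml2 followed the same pattern, with a difference of -1.55 (SE 0.14, adjusted p = 6.5e-06).

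For cholesterol synthesis and uptake the genotype effect was lower in both settings, with 19 of 26 tested genes lower with tau and 13 without it, and the difference between them was called for 2 genes, both negative. Without both length-shifted libraries, 21 were lower without tau and the difference was negative for 8. Hpgd averaged 4.06 ± 0.459 CPM in R47H_Tau and 14.3 ± 0.741 CPM in WT_Tau, and 151 ± 13.7 CPM in R47H and 196 ± 72.6 CPM in WT cells (SD, n = 3 each). Its difference of -1.44 (SE 0.35, adjusted p = 0.025) lost its call without R47H_Tau replicate 2 (adjusted p = 0.051), without either other R47H_Tau library, without R47H replicate 2 or 3, or without any 1 of the WT_Tau libraries, and was -1.77 without both length-shifted libraries.

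**Figure D5:**
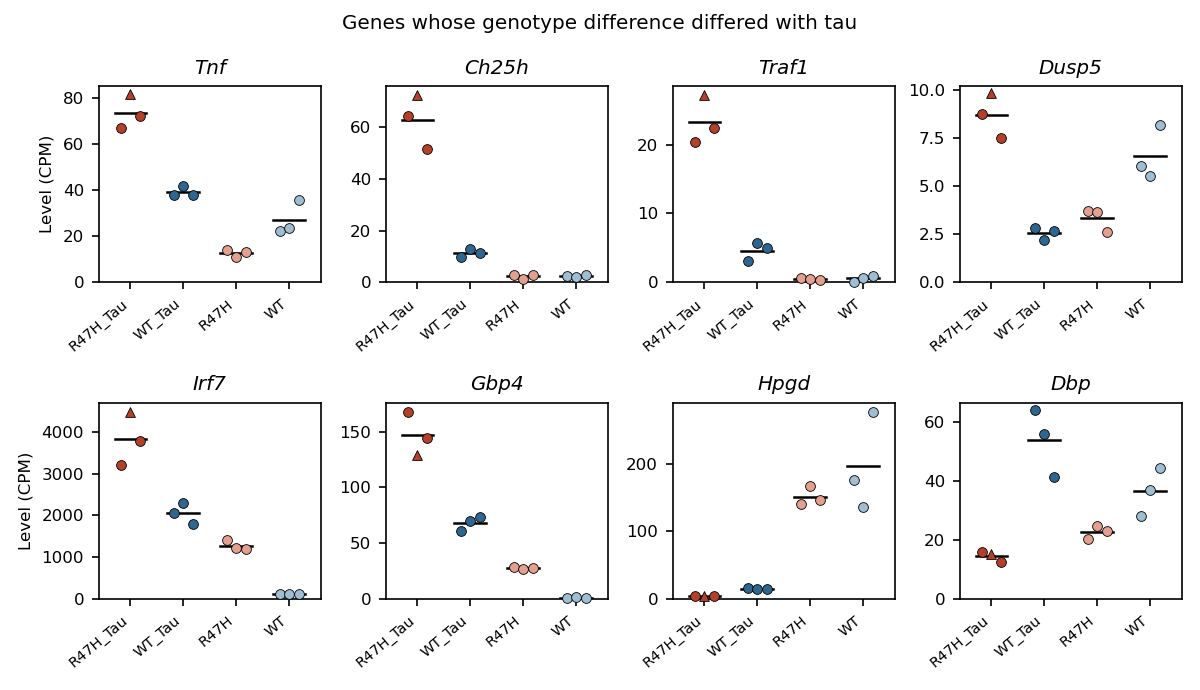
Levels (CPM, linear axis from 0) of 8 genes in R47H_Tau, WT_Tau, R47H and WT libraries (3 each, left to right), with the mean as a horizontal line; the triangle is R47H_Tau replicate 2. Tnf, Ch25h, Traf1 and Dusp5 are highest in R47H_Tau, Irf7 and Gbp4 are higher in both R47H groups than in the matched WT group, and Hpgd lies at 4.06 and 14.3 CPM in the groups with tau, against 151 and 196 CPM without it.

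Levels of a few genes in R47H cells given MK-2206 before tau are set beside these levels without a test. A comparison with R47H_Tau or WT_Tau would share libraries with the main comparison. Ccl2 had 56.5, 72.1 and 65.6 CPM and Ccl7 had 40.6, 44.8 and 39.9 CPM in R47H_MK2206_Tau libraries, against 49.4 to 59.6 CPM for Ccl2 and 31.1 to 43.3 CPM for Ccl7 in WT_Tau libraries. Ch25h had 14.2, 20.4 and 16.6 CPM and Tnf had 43.0, 41.6 and 39.2 CPM there. Nos2, in contrast, had 95.7, 98.9 and 94.5 CPM in R47H_MK2206_Tau libraries, above every R47H_Tau library. Trem2 had 183, 154 and 170 CPM, within the R47H_Tau range, Mmp9 had 35.5, 37.4 and 38.9 CPM and Cyp51 had 18.3, 17.4 and 17.8 CPM, each between the R47H_Tau and WT_Tau ranges.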

How the data were processed

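RNA was sequenced from 18 libraries of primary mouse microglia, 3 in each of 6 groups. The authors deposited 1 table of raw read counts for 54532 genes, with gene coordinates and lengths, per the file header. STAR, featureCounts and DESeq2 and the builds GRCm38 and mm10 are named in the submitters' processing notes, without versions or roles. Strand settings are not given in the sources used here, so reads of overlapping genes cannot be told apart. Of the deposited gene symbols, 27 had been turned into dates and were restored. The 6 libraries compared held 17055280 to 20686299 counts.

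Counts were fitted in edgeR 4.0.16 (R 4.3.3, limma 3.58.1) with all 18 libraries, TMM scaling, filterByExpr and the quasi-likelihood test with 12 residual degrees of freedom. P-values were adjusted by Benjamini-Hochberg over 13267 genes, with a threshold of 0.05. Log2 CPM used a prior count of 2. The procedure was tested on simulated counts. These held no gene-length trend and no library that stood apart, so the test does not cover such features. Alternatives were RLE scaling, no count filter, a replicate block, the compared groups alone, a gene-length offset (lowess, span 0.3), DESeq2 1.42.0 and leaving out in turn each library of the 4 groups without MK-2206. The text names Trem2, the largest changes that held without R47H_Tau replicate 2 (at most 15 in each direction), the 10 most abundant called genes, up to 5 members of each list by p, up to 5 genes lost and up to 5 gained without that library, and a few study genes. Not all were printed. Members and lists were chosen with earlier results of these data known, and genes said to be named after their values were seen fall outside the rule. Some results are not reported here.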

Additional observations from a re-analysis of the deposited data

Results flagged for a closer look

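The genotype effect with tau (R47H_Tau minus WT_Tau) differed from the effect without tau (R47H minus WT) for 44 of the 117 genes described here, by edgeR's quasi-likelihood test of the difference itself, with Benjamini-Hochberg adjusted p below 0.05. The difference was positive for 21 and negative for 23. Among genes of the NF-kB and early response lists, the effect was more positive with tau, on the log2 scale, namely Traf1 (2.54), Bcl2a1a (2.49), Nfkbie (1.73), Cd83 (0.61), Gadd45b (0.85), Dusp5 (2.74), Dusp1 (1.99), Zfp36 (0.77) and Atf3 (0.97). The effect was also more positive with tau for a mixed group, namely Tnf (2.0), Il1rn (1.49), Il1b (1.65), Ccr1 (1.10), Ccrl2 (0.64), Ch25h (2.43), Pla2g4a (0.76), Hcar2 (1.13), Spp1 (1.14), Tpx2 (1.03), Slc12a5 (1.71) and Psat1 (0.86). Interferon-stimulated genes, GTPases and class I genes had an effect that was less positive with tau, namely Irf7 (-2.54), Rsad2 (-1.81), Cmpk2 (-1.19), Phf11b (-1.37), Mx2 (-1.11), Usp18 (-0.99), Gbp4 (-3.74), Tgtp2 (-2.19), H2-Q6 (-2.33) and H2-Q7 (-1.84). The same sign was seen for genes of several lists, namely Treml2 (-1.55), P2ry12 (-1.07), P2ry13 (-0.74), Itgb5 (-0.51) and Trib3 (-1.06). It was also seen for genes of metabolism and the circadian clock, namely Ptgs1 (-0.85), Hpgd (-1.44), Pfkfb4 (-0.83), Glul (-0.56), Ephx1 (-0.89), Dbp (-1.20), Nr1d1 (-1.32) and Per3 (-1.20). Without R47H_Tau replicate 2 and WT replicate 3, which both have a gene-length trend, the difference stayed called for 43 of the 44, and Traf1 was the exception (adjusted p = 0.0723). In that setting 6 of the differences were smaller by over 1.5 times, with 1.15 for Bcl2a1a, 0.46 for Gadd45b, 1.06 for Il1b, 0.68 for Spp1, -0.82 for Nr1d1 and -0.75 for Per3. Over the ATF4 and amino acid response list, of which Atf3, Psat1 and Trib3 are members, the difference was positive for 3 and negative for 4 of 33 tested genes, and for 4 and 15 without both libraries. Of the 44 genes, 34 kept a called difference without R47H_Tau replicate 2 alone, and 20 in every alternative.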

How the results depend on the processing

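The 1260 genes called between R47H_Tau and WT_Tau became 2260 when both groups were fitted alone without R47H_Tau replicate 2, and 3141 when R47H_Tau replicate 2 and WT replicate 3 were left out of the fit of all groups. Of the 1260 genes, 1171 and 1236 were among those. Leaving out 1 library at a time gave 650 to 1054 calls, with 650 without WT_Tau replicate 1, 786 without WT_Tau replicate 2 and 792 without R47H_Tau replicate 2. The genotype effect without tau (1997 calls) gave 466 with its groups fitted alone, 3924 without both length-shifted libraries and 1301 to 3013 without 1 library. The difference between the effects (713 calls) gave 352 with the groups alone, 240 when R47H_Tau replicate 2 was also left out, 1551 without both length-shifted libraries, 1071 with a gene-length offset, 1194 with DESeq2 and 470 to 1602 without 1 library. The cause of these shifts was not tested. With the replicate block the 3 counts were 1043, 1725 and 598, and Ccl5, B2m, Xcr1 and Per2 lost their call. Same-numbered libraries of R47H_Tau and WT_Tau had deviations correlated at -0.0058, 0.20 and 0.0075, so the numbers were not taken to pair libraries. Among the 107 called genes described here, 95 kept their call in every alternative, and none of the 117 changed sign. Counts near 1 CPM and 3 libraries a group limit what can be seen for low genes.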

Other observations

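Values are given for 9 genes of the circadian clock, which were picked after their values were seen and are no count of clock genes. Dbp, an output factor of the clock, had 15.8, 15.2 and 12.3 CPM in R47H_Tau and 63.9, 55.8 and 41.2 CPM in WT_Tau libraries (log2 change -1.90, SE 0.19, adjusted p = 1.8e-05). Tef, its relative, changed by -1.06 (adjusted p = 5.3e-05), and the repressor genes Per3 and Nr1d1 by -1.61 (adjusted p = 3.4e-04) and -1.59 (adjusted p = 6.7e-04). Nfil3, which competes with Dbp for the same sites, was higher, with a change of 0.73 (adjusted p = 0.0035). These 5 genes kept their call without R47H_Tau replicate 2. Bhlhe41 changed by -0.53 (adjusted p = 0.0010) and lost its call with a gene-length offset, Nr1d2 changed by -0.68 (adjusted p = 0.0073) and lost it with both groups fitted alone, and Per2 changed by -0.96 (adjusted p = 0.033) and lost it without R47H_Tau replicate 2 or 3 or WT_Tau replicate 1 or 2. Arntl, which encodes the activator BMAL1, was not called (log2 change 0.40, adjusted p = 0.056), but was called in 6 alternatives, among them RLE scaling, DESeq2 and a gene-length offset. The hour at which cells were collected is not given in the labels, and its part was not tested.

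Other single genes with clear separation were also named after their values were seen. Hcar2, a receptor for niacin and ketone bodies, had 85.5, 94.6 and 87.3 CPM in R47H_Tau and 29.2, 31.1 and 32.8 CPM in WT_Tau libraries (log2 change 1.52, adjusted p = 4.1e-07). Glul, glutamine synthetase, had 104, 107 and 114 CPM in R47H_Tau and 250, 236 and 241 CPM in WT_Tau libraries (log2 change -1.16, adjusted p = 7.3e-07). Ephx1, which hydrolyses epoxides, had 6.27, 7.35 and 6.11 CPM in R47H_Tau and 23.8, 22.1 and 20.5 CPM in WT_Tau libraries (log2 change -1.75, adjusted p = 9.1e-07).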
